A study of Mus musculus with 6 samples.

Results

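Keratins are the filament proteins of epithelial cells, and 6 keratin genes could be read at a useful level in these mouse kidney libraries: Krt8, Krt7, Krt20, Krt5, Krt15 and Krt80. They are all the genes named Krt plus a number that could be read by the position of the counted intervals on the mouse assembly GRCm38 and that reached a mean of 5 CPM in either group, where CPM is a gene's count scaled to a fixed library total. They are 6 of 9519 genes read by position, and 6 of 53 keratin genes in the annotation. Keratins work as pairs, with 1 type I and 1 type II protein joined in each filament. Krt8 and Krt7 are type II keratins of simple epithelia such as ducts and collecting tubules. Krt20 is a type I keratin of intestinal epithelium and of the umbrella cells of the urothelium, the lining of the renal pelvis. Krt8 and Krt20 are also known to rise in damaged kidney tubules. Krt5, type II, and Krt15, type I, mark basal cells of layered epithelia, urothelium included, and Krt80 is a type II keratin of other epithelia.

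The libraries were made from kidney total RNA of C57BL/6 mice, the common inbred laboratory strain, at postnatal day 21. Of the 6 libraries, 3 carry the diagnosis acute renal failure (titled treat) and 3 the diagnosis healthy (titled control). No agent, genotype or cause of renal failure is named in the labels, and nothing ties a library to an animal of its own. The p-values therefore cover library-to-library spread alone, which may be technical. The groups are called ARF-labelled and healthy-labelled here. Libraries held 5455886, 5525366 and 6191479 counts in the ARF-labelled group, against 5710010, 2873370 and 3630813 counts in the healthy-labelled group. Kidney markers were present in both groups. The summed level of 12 proximal tubule genes ran from 8379 to 9253 CPM in ARF-labelled libraries and from 18284 to 27646 CPM in healthy-labelled libraries. That of 5 principal cell genes of the collecting duct ran from 9685 to 11499 CPM in ARF-labelled libraries and from 3359 to 4081 CPM in healthy-labelled libraries. Most of this sum was Aqp3, with 7433 to 9306 CPM in ARF-labelled and 2943 to 3459 CPM in healthy-labelled libraries. All 5 genes were higher in ARF-labelled libraries. Of 28 listed tubular injury genes that are not keratins, 9 were tested, and Havcr1 and Lcn2 were among those that could not be read. Of these 9, 7 fell and 1 rose under the ARF label, a direction that goes against the diagnosis in the labels. Of the 12 proximal tubule genes, 9 were lower and 1 was higher. Over all genes tested 24.9% were called lower and 25.1% higher, the shares to set beside each marker count given here. Whether the labels of the groups are exchanged could not be settled here, and if they are, the sign of each difference given below turns. Intercalated cells, the acid-base cells of collecting ducts, had 9 genes tested, and all 9 were higher in ARF-labelled libraries. Both neutrophil genes tested, Mmp8 and Csf3r, were lower, and their summed level ran from 3.08 to 6.95 CPM in ARF-labelled and from 46.6 to 155 CPM in healthy-labelled libraries. Of 3 erythroid genes tested, Hbb-bs and Alas2 were lower (-3.37 and -2.86 on the log2 scale), and Slc4a1, which intercalated cells also make, was higher (2.86). The part of such shifts between cell types in the keratin values was not tested.

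Of the 9519 genes read by position, 7759 had no row bearing their own name among the rows assigned to them, so the rows that carry keratin names say little about keratins. The rows named Krt8, Krt5, Krt15, Krt14 and Krt19 had 0 counts in all 6 libraries, and the row named Krt20 had 1. Each of the 6 keratins was held in a single row of another name, and the reads of Krt8 were in the row named Eif4b. Of the 53 keratin genes, 26 could not be read, and these include Krt18 and Krt19, the type I partners of Krt8 in kidney, and Krt14, the partner of Krt5. Another 21 were read but stayed under 5 CPM. Among them 11 had 0 counts in all libraries, and 10 had 1 to 29 counts over the 6 libraries. The nearest to the limit from below was Krt87, a hair keratin, at a mean of 1.20 CPM in healthy-labelled libraries, and the nearest from above was Krt15, at a mean of 49.4 CPM in ARF-labelled libraries. No keratin among the 6 had a group mean under 12.2 CPM, and all 6 passed the filter on low counts.

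The stretches counted for Krt20 lie mostly in exon 6 of 8, and are shown because Krt20 changed most of the 6 and no run of 31 bases in them recurs in a transcript of another gene. The Krt5 stretch in exon 5 is shown for contrast, with capitals on the 79 of 127 bases that lie in runs of 31 shared with Krt6a, Krt6b, Krt75 or other annotated genes. Sequences are from GENCODE M21 transcripts on GRCm38, written 5′ to 3′ on the gene's strand.
Krt20 exon 6, chr11:99430899-99430973, - strand: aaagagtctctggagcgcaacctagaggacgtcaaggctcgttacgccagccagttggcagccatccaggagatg
Krt20 exon 6, chr11:99430753-99430823, - strand: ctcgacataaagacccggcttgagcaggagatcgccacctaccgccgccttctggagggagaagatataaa
Krt5 exon 5, chr15:101710289-101710415, - strand: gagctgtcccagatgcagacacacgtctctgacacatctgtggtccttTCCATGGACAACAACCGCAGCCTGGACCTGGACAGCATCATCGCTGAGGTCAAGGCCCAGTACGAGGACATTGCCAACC
Of 311 such runs in the stretches counted for Krt5, 34 (10.9%) recur elsewhere, all of them in exon 5. For Krt8 it is 367 of 879 (41.8%), in the pseudogene Krt8-ps or in Krt75, so its level may hold reads that cannot be told from those copies. For Krt15 it is 5 of 127, shared with Krt17, and for Krt7 and Krt80 it is 0. An antisense gene, Gm36026, covers part of Krt8 exon 1, another, Gm35853, spans the Krt80 stretches, and Gm44323, annotated as a miRNA, lies over the Krt5 stretch in exon 5. Counting ignored strand, so reads from Gm36026 and Gm44323 cannot be separated. For Gm35853 no exon of the annotation used lies under the Krt80 row, whose 220 exon bases are all of Krt80. Only Gm35853 reads outside its annotated exons could be mixed in.

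**Figure D1:**
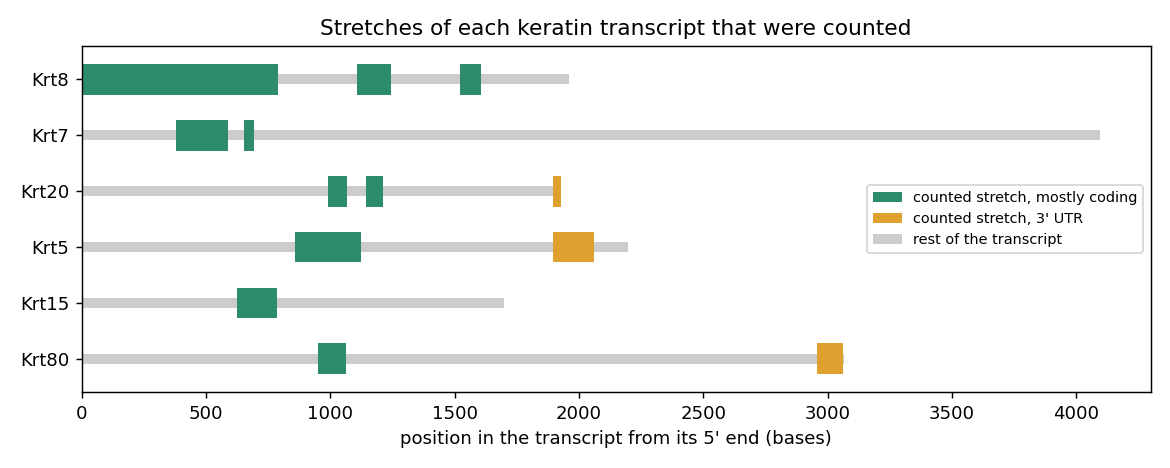
Position along each keratin's transcript, in bases from its 5′ end (x axis), of the stretches under the counted intervals. Krt8 was counted over 1008 of 1958 bases (51.5%), whereas Krt7 was counted over 254 of 4094 bases (6.20%) and Krt20 over 178 of 1927 (9.24%).

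Whether the keratins of these kidneys differ between the ARF-labelled and the healthy-labelled group was asked with edgeR's quasi-likelihood test over 5246 genes, with Benjamini-Hochberg adjustment and a threshold of 0.05. Log2 fold changes are ARF-labelled over healthy-labelled, with their standard error (SE). Of the 6 keratins, 3 were lower in the ARF-labelled libraries (Krt20, Krt8 and Krt7), 0 were higher and 3 were not called. Over all genes tested, 50.0% were called, 24.9% lower and 25.1% higher. The median log2 fold change of the 6 keratins was -0.63, beside 0.01 over all genes. In bulk tissue a lower level can come from fewer cells of a type or from less RNA per cell, and these cannot be told apart.

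Krt8 stood at 989, 930 and 643 CPM in the ARF-labelled libraries, against 6046, 5530 and 4528 CPM in the healthy-labelled libraries. The groups were far apart, and the lowest healthy-labelled library was still above every ARF-labelled one. The log2 fold change was -2.82 (SE 0.20, edgeR adjusted p = 2.63e-05), a level 7.08-fold lower. Among the 5246 genes tested, 1.91% had a lower log2 fold change than Krt8.

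Krt20 had 16.1, 11.6 and 8.88 CPM in the ARF-labelled libraries, against 140, 163 and 172 CPM in the healthy-labelled libraries. Its groups did not overlap either, and its change was the greatest of the 6 keratins. The log2 fold change was -3.87 (SE 0.21, edgeR adjusted p = 8.81e-06), a level 14.6-fold lower, and 0.743% of genes tested lay lower. The counts behind it were 207 over the ARF-labelled and 1889 over the healthy-labelled libraries.

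Krt7, the other type II keratin of ducts, had 771, 936 and 705 CPM in the ARF-labelled libraries, against 1339, 1167 and 949 CPM in the healthy-labelled libraries. The groups did not overlap, but the gap between the highest ARF-labelled and the lowest healthy-labelled library was small. Its log2 fold change was -0.69 (SE 0.17, edgeR adjusted p = 0.0100), a level 1.61-fold lower. In 3 of the 6 keratins the groups held separate values, as they did in 62.4% of all genes tested.

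**Figure D2:**
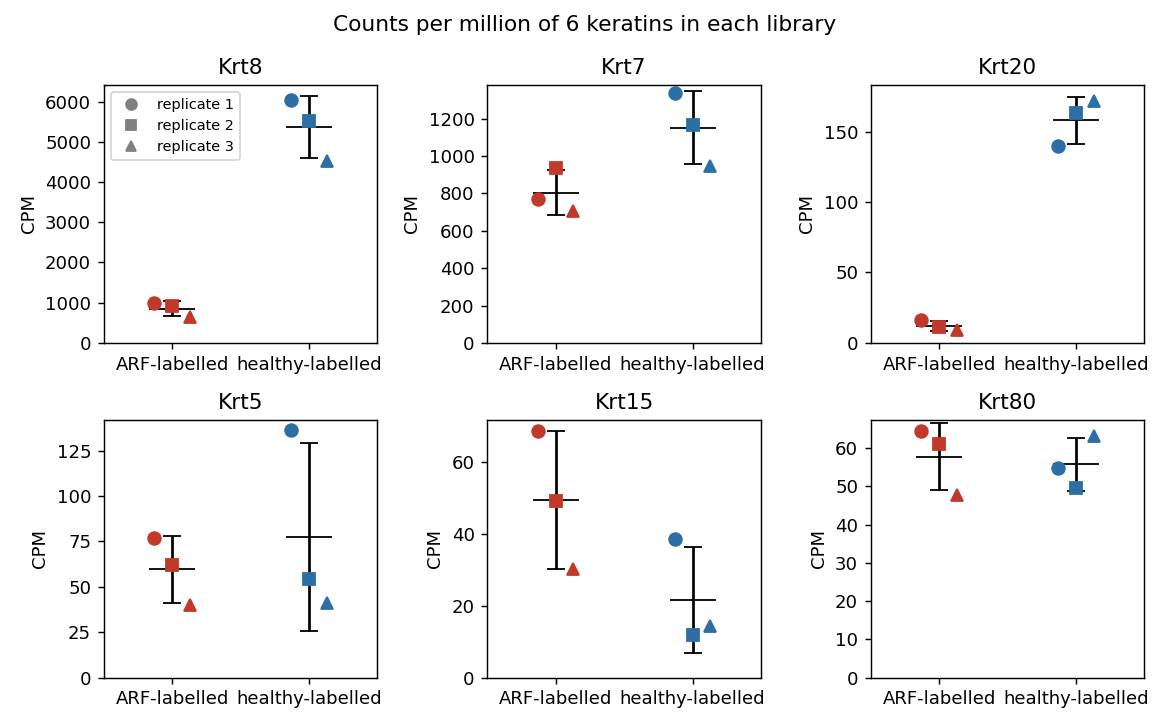
CPM (y axis, from 0) of each keratin in the 3 ARF-labelled and 3 healthy-labelled libraries, with a point per library, the mean as a horizontal line and the SD as a bar. Krt8, Krt7 and Krt20 show groups that do not overlap, whereas the groups of Krt5, Krt15 and Krt80 overlap. Replicate 1 is the highest healthy-labelled point of Krt8, Krt7, Krt5 and Krt15.

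Krt5 had 76.6, 62.1 and 40.2 CPM in the ARF-labelled libraries, against 136, 54.3 and 41.3 CPM in the healthy-labelled libraries. Healthy-labelled replicate 1 stood well above the other libraries, and the groups overlapped. The log2 fold change was -0.57 (SE 0.43, 95% interval -1.55 to 0.41, edgeR adjusted p = 0.296). Without healthy-labelled replicate 1 it was 0.15 (edgeR adjusted p = 0.687, with 0.123 to 0.687 over all alternatives), so its sign rests on that library.

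Krt15, another basal keratin, had 68.7, 49.2 and 30.2 CPM in the ARF-labelled libraries, against 38.5, 11.8 and 14.3 CPM in the healthy-labelled libraries. The same healthy-labelled replicate was again the highest of its group, and it lay within the ARF-labelled range. The log2 fold change was 0.95 (SE 0.45, 95% interval -0.07 to 1.98, edgeR adjusted p = 0.109), which was not called. It was 1.73 without healthy-labelled replicate 1 and then passed the threshold (edgeR adjusted p = 0.00820, with 0.00820 to 0.308 over all alternatives). DESeq2's Wald test, at 1.00 on the log2 scale, also called it (adjusted p = 0.0471).

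Krt80 had 64.3, 61.0 and 47.8 CPM in the ARF-labelled libraries, against 54.6, 49.4 and 63.1 CPM in the healthy-labelled libraries. The groups lay over each other. The log2 fold change was -0.13 (SE 0.16, 95% interval -0.49 to 0.24, edgeR adjusted p = 0.543). Its sign turned with scaling by total count alone (0.05) and without ARF-labelled replicate 3 (0.01).

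**Figure D3:**
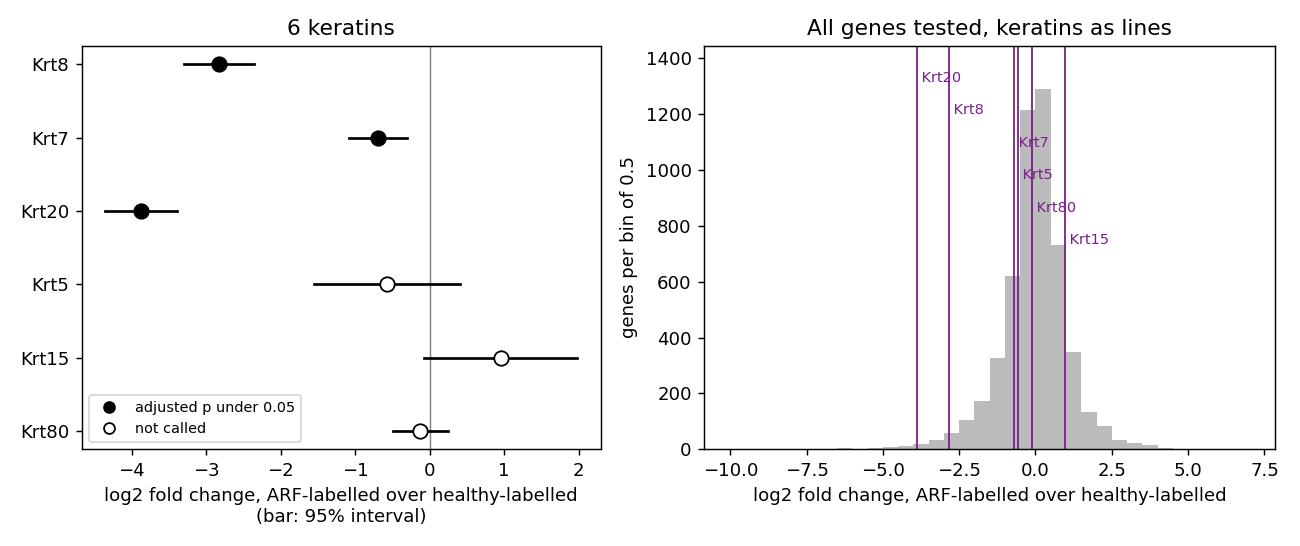
Log2 fold changes, ARF-labelled over healthy-labelled, of the 6 keratins with 95% intervals (left, filled where the edgeR adjusted p is under 0.05), and the distribution over all 5246 genes tested in bins of 0.5 with the keratins as lines (right). Krt20 and Krt8 lie in the lower tail, at -3.87 and -2.82, and the other 4 lie between -0.69 and 0.95.

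Keratin levels can be ordered only per counted length, given here as CPM per 100 counted bases with the SD over 3 libraries. Fragments that reach a short stretch are counted whole, so such values favour genes read through short stretches. In ARF-labelled libraries Krt7 led at 317 ± 46.9 (SD, n = 3), ahead of Krt8 at 84.7 ± 18.4 and Krt15 at 30.3 ± 11.8. Krt80 at 26.2 ± 3.97, Krt5 at 13.8 ± 4.25 and Krt20 at 6.85 ± 2.06 followed. The ranges of Krt15 and Krt80 overlapped, and every other pair of neighbours in that order was separate. In healthy-labelled libraries Krt8 led at 533 ± 76.6, and its range overlapped that of Krt7 at 453 ± 76.9. Krt20 came next at 88.8 ± 9.36, separate from its neighbours on both sides. Krt80 at 25.3 ± 3.13, Krt5 at 17.9 ± 11.97 and Krt15 at 13.2 ± 9.05 followed, with overlapping ranges. Krt20 was thus last of the 6 in ARF-labelled libraries, against its place after Krt8 and Krt7 in healthy-labelled libraries.

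Whether keratins changed by unequal amounts was asked with ratios within each library, as log2 of CPM + 0.5, not corrected for length. The log2 ratio of Krt20 to Krt8 was -5.90, -6.27 and -6.10 in ARF-labelled libraries, against -5.43, -5.08 and -4.71 in healthy-labelled libraries. The difference was -1.01, so Krt20 was lower relative to Krt8 in all 3 ARF-labelled libraries. The log2 ratio of Krt5 to Krt8 averaged -3.85 ± 0.15 in ARF-labelled and -6.29 ± 0.72 in healthy-labelled libraries (SD, n = 3 each), a difference of 2.44. That of Krt5 to Krt20 averaged 2.23 ± 0.13 in ARF-labelled and -1.22 ± 1.05 in healthy-labelled libraries (SD, n = 3 each), a difference of 3.45. For none of the 3 ratios did the groups overlap. Each had p = 0.1 in a two-sided exact permutation test (adjusted p = 0.1 over the 3 ratios). That is the smallest p that 3 against 3 libraries can give. The ratio of Krt5 to Krt20 follows from the others by subtraction, so the 3 are not separate results.

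A further pair of ratios was chosen after the values were seen. Krt7 to Krt8 averaged -0.07 ± 0.26 in ARF-labelled and -2.22 ± 0.04 in healthy-labelled libraries (SD, n = 3 each), a difference of 2.15. In the healthy-labelled libraries this ratio hardly varied, from -2.25 to -2.17. Krt15 to Krt5 averaged -0.30 ± 0.13 in ARF-labelled and -1.82 ± 0.33 in healthy-labelled libraries (SD, n = 3 each), a difference of 1.52, and healthy-labelled replicate 1, which was high in both genes, had -1.81. Both had p = 0.1 in the exact permutation test (adjusted p = 0.1 over all 5 ratios). Groups of 3 that do not overlap give that p by themselves. For ratios chosen after the values were seen it therefore adds no support.

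**Figure D4:**
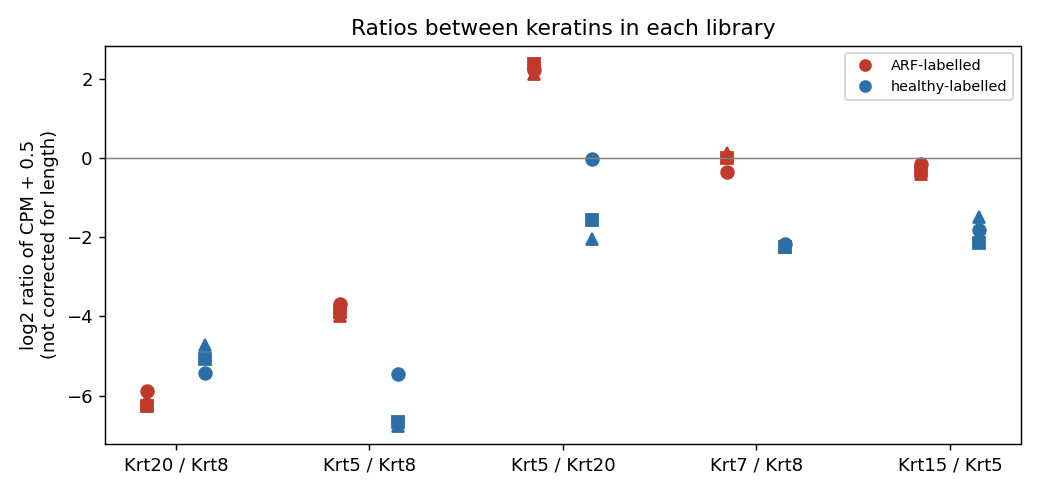
Log2 ratio of CPM + 0.5 between keratin pairs (y axis) in each library, with marker shapes for replicates 1 to 3 (circle, square, triangle). For all 5 pairs the ARF-labelled and healthy-labelled points do not overlap, and the widest gap between group means is 3.45, for Krt5 to Krt20.

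Keratin rows that the rule leaves out hold 1 further large difference, named here after its values were seen. A row over 496 bases of Krt17 and 193 bases of Krt42, both type I keratins, had 6, 5 and 2 counts in ARF-labelled libraries, against 394, 177 and 109 counts in healthy-labelled libraries. That is 1.1, 0.905 and 0.323 CPM in ARF-labelled and 69.0, 61.6 and 30.02 CPM in healthy-labelled libraries. When rows with at least 0.5 of their exon bases on 1 gene were accepted, it was read as Krt17 with a log2 fold change of -6.30 (SE 0.46, edgeR adjusted p = 3.69e-05). Which of Krt17 and Krt42 the reads belong to cannot be told from this row. Krt6a, a keratin of wounded epithelium, shared a row with the gene Gm49428. That row had 1, 0 and 0 counts in ARF-labelled libraries, against 18, 1 and 5 counts in healthy-labelled libraries, most of them in replicate 1.

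The urothelium is the other keratin-rich epithelium in a kidney sample, and its markers were read beside Krt5, Krt15 and Krt20. Of 19 genes in the urothelial list 8 were read, and 5 of those are not keratins. The summed level of these 5 ran from 321 to 386 CPM in ARF-labelled libraries and from 74.1 to 177 CPM in healthy-labelled libraries. Upk3a, a uroplakin of the umbrella cell membrane, had 217, 199 and 197 CPM in ARF-labelled libraries, against 73.2, 44.5 and 29.2 CPM in healthy-labelled libraries. Its level was thus higher under the ARF label, by 1.86 on the log2 scale (SE 0.28, edgeR adjusted p = 0.000810). Snx31, a sorting nexin of umbrella cells, had 119, 106 and 84.0 CPM in ARF-labelled libraries, against 27.3, 19.5 and 14.3 CPM in healthy-labelled libraries (log2 fold change 2.13, SE 0.24, edgeR adjusted p = 0.000192). Both went the opposite way to Krt20, which umbrella cells also make. Ivl, an envelope protein of layered epithelia, and the transcription factor gene Foxa1 were not called (edgeR adjusted p = 0.0876 for Ivl and 0.193 for Foxa1). The row of Trp63, the master regulator of basal cells, had 0 counts in all 6 libraries over 110 counted bases. In the healthy-labelled group replicate 1 had the highest value of Upk3a, Snx31, Ivl, Foxa1, Krt5 and Krt15. It had the highest value of Krt8 (6046 CPM, against 5530 and 4528 CPM) and Krt7 (1339 CPM, against 1167 and 949 CPM) as well. It had the lowest of Krt20, which is also in the urothelial list. The part of urothelial cells in the changes of the keratins was not tested.

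**Figure D5:**
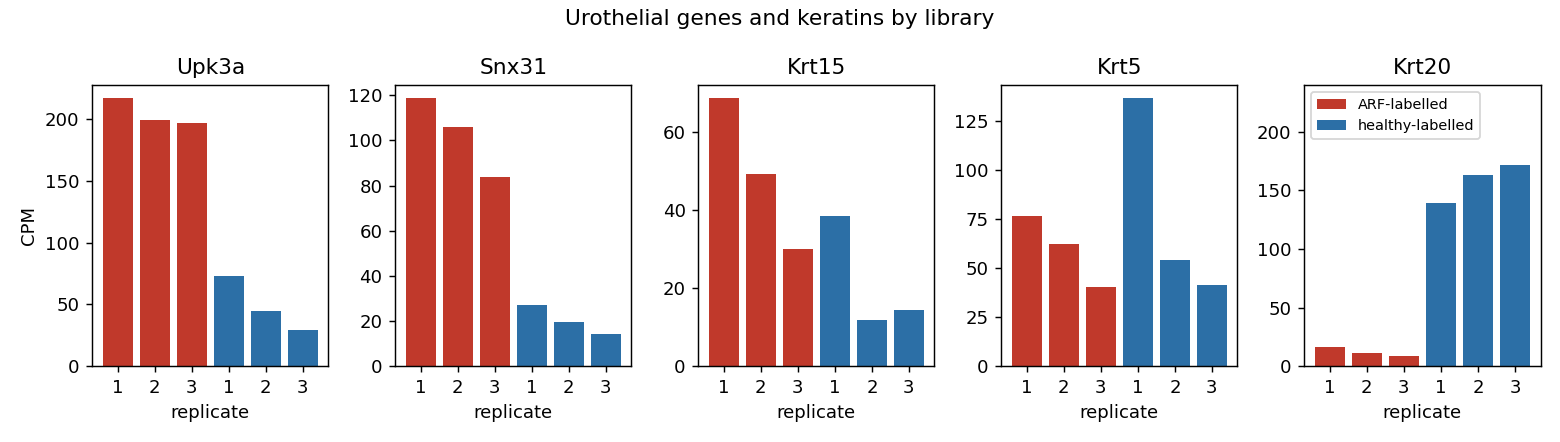
CPM (y axis, from 0, a scale per panel) of the urothelial genes Upk3a and Snx31 and of Krt15, Krt5 and Krt20 in ARF-labelled replicates 1 to 3 and healthy-labelled replicates 1 to 3. Upk3a, Snx31 and Krt20 have groups that do not overlap, with Krt20 in the opposite direction, and healthy-labelled replicate 1 has the tallest bar of all for Krt5.

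Markers of layered skin epithelium were read as well, and Ivl among them is also in the urothelial list. Ivl had 38.5, 30.2 and 31.5 CPM in ARF-labelled libraries, against 69.7, 47.3 and 25.9 CPM in healthy-labelled libraries. Of 13 genes in that list 6 were read and 3 were tested, of which 0 were called by edgeR or by DESeq2. Over all genes tested with edgeR 50.0% were called. The summed level of the 4 that are not keratins ran from 41.4 to 72.0 CPM in ARF-labelled and from 35.3 to 90.2 CPM in healthy-labelled libraries, and Dsc1 had 0 counts throughout. At an unadjusted p under 0.05 there was 1 of the 3 with either tool, Ivl (edgeR unadjusted p = 0.0496). A call appeared when a single library was left out: Lor was called without healthy-labelled replicate 2 (edgeR adjusted p = 0.0494), Ivl without healthy-labelled replicate 3 (0.00866) and Sbsn without ARF-labelled replicate 3 (0.0269).

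Keratin filaments end on desmosomes, which join cells, and on hemidesmosomes, which hold cells to the matrix. Of 31 genes in a list of such anchors 11 were tested, of which 4 fell, 2 rose and 5 were not called. That is 54.5% called, close to the 50.0% over all genes tested. The median log2 fold change of the 11 anchors was 0.06. Itga6, an integrin of hemidesmosomes, had 17.96, 13.03 and 26.97 CPM in ARF-labelled libraries, against 183, 126 and 146 CPM in healthy-labelled libraries (log2 fold change -3.15, SE 0.26, edgeR adjusted p = 4.55e-05). Its partner Itgb4 was lower by less (-0.82, SE 0.17). Plec encodes plectin, which links keratins to hemidesmosomes, and stood at 7176, 5902 and 2941 CPM in ARF-labelled libraries, against 12075, 13925 and 12458 CPM in healthy-labelled libraries (-1.43, SE 0.29). Fam83h, which organizes keratin filaments through a kinase, was lower too (-0.89, SE 0.13).

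The anchors that were higher were Evpl, the plakin envoplakin of layered epithelia (1.52, SE 0.26), and Dst, the plakin dystonin (0.67, SE 0.21). Dst lost its call without healthy-labelled replicate 1 (edgeR adjusted p = 0.0807), healthy-labelled replicate 3 (0.0945) or ARF-labelled replicate 1 (0.0576, log2 fold change 0.42). Over all alternatives the adjusted p of Dst ran from 0.00299 to 0.0945. Dsp, which encodes desmoplakin, had 75.5, 91.4 and 31.7 CPM in ARF-labelled libraries, against 42.9, 52.9 and 51.2 CPM in healthy-labelled libraries, and the groups overlapped (0.27, SE 0.34, edgeR adjusted p = 0.538). The desmosomal cadherin Dsg2 (-0.11, SE 0.15) and the plakophilin genes Pkp1 (0.11, SE 0.36) and Pkp4 (0.06, SE 0.31) were not called either.

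All 4 of the other intermediate filament genes tested were called, 3 lower and 1 higher, beside 50.0% called over all genes tested. Nes, which encodes nestin, had 80.6, 63.5 and 45.9 CPM in ARF-labelled libraries, against 325, 514 and 372 CPM in healthy-labelled libraries (-2.84, SE 0.24, edgeR adjusted p = 4.8e-05). Vim encodes vimentin, the filament of mesenchymal cells and of damaged tubules, and had 58.1, 56.8 and 39.2 CPM in ARF-labelled libraries, against 106, 299 and 206 CPM in healthy-labelled libraries (-2.15, SE 0.34). Healthy-labelled replicate 1 was the lowest of its group for Vim, as it was for Mmp8 (28.2 CPM against 87.0 and 99.2 CPM in the other healthy-labelled libraries), Csf3r, Hbb-bs and Alas2, and the part of blood cells in these values was not tested. Lmna, the nuclear lamin A/C gene, was lower (-2.27, SE 0.13), whereas the lamin B2 gene Lmnb2 was higher (1.16, SE 0.26).

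Proteins that modify or bind keratins were mixed. Of 8 such genes tested from a list of 32, 2 were lower and 3 higher (62.5% called, beside 50.0% over all genes tested). Ywhaz, a 14-3-3 adaptor of a family that binds phosphorylated Krt18, was lower (-1.07, SE 0.13), as was its relative Ywhab (-0.40, SE 0.11). The modifier genes Sumo3 (1.75, SE 0.24) and Sumo2 (0.50, SE 0.11) and the kinase gene Prkcd (0.42, SE 0.10) were higher. Ywhab lost its call without ARF-labelled replicate 1 or 3 (edgeR adjusted p = 0.0681 and 0.0611) and with scaling by totals (0.106), and Prkcd without healthy-labelled replicate 3 (0.0502).

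Of 19 transcription factor genes tested that act on keratin genes or on epithelial identity, 10 were lower, 4 higher and 5 not called. That is 73.7% called, beside 50.0% over all genes tested. Fosl1, an AP-1 factor, had 0.367, 0.543 and 0.969 CPM in ARF-labelled libraries, against 74.6, 99.5 and 89.2 CPM in healthy-labelled libraries (-7.21, SE 0.25, edgeR adjusted p = 2.72e-06). Fos, another AP-1 gene, had 192, 16.5 and 29.1 CPM in ARF-labelled libraries, against 554, 544 and 606 CPM in healthy-labelled libraries (-3.03, SE 0.78). ARF-labelled replicate 1 was the high one in its group, and without it the log2 fold change of Fos was -4.80. Klf4, a factor of differentiating epithelium, was lower (-2.59, SE 0.18), as were Junb (-2.47, SE 0.23) and the mesenchymal repressor gene Zeb1 (-2.37, SE 0.22). Ehf, an ETS factor of epithelia, was higher, with 315, 423 and 410 CPM in ARF-labelled libraries, against 76.9, 90.8 and 73.8 CPM in healthy-labelled libraries (2.08, SE 0.15).

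The promoters of the 3 keratins that fell, and that of Krt5 for contrast, are shown to let a reader compare what lies before genes that were lower, by unequal amounts. RefSeq's table for GRCm38.p6 matched 4 of the 6 keratins, and Krt15 and Krt80 were not matched. Each line holds the 250 bases before the start RefSeq gives, which for Krt7 and Krt8 lies inside the gene as GENCODE draws it. Capitals mark matches on either strand to the TATA box TATAAA, the GC box GGGCGG, the AP-1 site TGANTCA or the Grainyhead-like site AACNGGTT, which do not overlap here.
Krt8 promoter, chr15:102004343-102004592, - strand: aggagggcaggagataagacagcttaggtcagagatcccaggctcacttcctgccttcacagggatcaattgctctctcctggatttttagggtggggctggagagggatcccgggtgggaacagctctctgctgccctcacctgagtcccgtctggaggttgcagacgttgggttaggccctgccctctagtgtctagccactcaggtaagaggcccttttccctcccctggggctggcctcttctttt
Krt20 promoter, chr11:99438154-99438403, - strand: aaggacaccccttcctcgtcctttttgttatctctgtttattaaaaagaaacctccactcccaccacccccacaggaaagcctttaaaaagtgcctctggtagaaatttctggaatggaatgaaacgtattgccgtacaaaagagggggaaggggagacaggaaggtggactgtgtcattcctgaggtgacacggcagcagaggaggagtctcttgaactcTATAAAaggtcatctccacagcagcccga
Krt7 promoter, chr15:101412153-101412402, + strand: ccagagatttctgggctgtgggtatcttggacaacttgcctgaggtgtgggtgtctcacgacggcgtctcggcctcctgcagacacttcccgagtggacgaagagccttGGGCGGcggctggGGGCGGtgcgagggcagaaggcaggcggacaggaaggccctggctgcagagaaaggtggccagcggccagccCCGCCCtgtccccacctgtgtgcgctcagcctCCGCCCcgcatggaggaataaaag
Krt5 promoter, chr15:101712906-101713155, - strand: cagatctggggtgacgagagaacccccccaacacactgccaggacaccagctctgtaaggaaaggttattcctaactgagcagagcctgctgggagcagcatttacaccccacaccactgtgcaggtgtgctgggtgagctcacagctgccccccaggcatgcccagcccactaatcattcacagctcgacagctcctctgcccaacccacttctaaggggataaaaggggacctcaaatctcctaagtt
The TATA box letters occur 29 bases before the start of Krt20, and 12.4% of 32851 promoters of this length hold them. The GC box letters occur at 4 places before Krt7, and 32.7% of promoters hold them. No match to the AP-1 letters (6.75% of promoters) or the Grainyhead-like letters (1.79%) lies in these 4 windows, and the windows of Krt8 and Krt5 hold none of the 4 motifs. G and C make up 48.0% of the Krt20 window, 58.0% of that of Krt8, 56.0% of that of Krt5 and 66.0% of that of Krt7.

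The keratins lie in clusters, type I on chromosome 11 and type II on chromosome 15. Within 200 kb of the start of Krt8 the other gene tested was Spryd3, at a distance of 131.8 kb, and it was not called (-0.30, SE 0.13, edgeR adjusted p = 0.0947). None was tested within 200 kb of Krt20 or Krt5. Near Krt15 it was Eif1, at 184.0 kb, which was lower (-1.04, SE 0.13, edgeR adjusted p = 0.000331). Nr4a1, an immediate-early nuclear receptor gene, lies 156.8 kb from Krt7 and 115.9 kb from Krt80 and was lower (-1.85, SE 0.43, edgeR adjusted p = 0.00785). Acvr1b, an activin receptor gene 196.1 kb from Krt80, was higher (0.49, SE 0.12, edgeR adjusted p = 0.0114), and Gm35853 was not called (-0.57, SE 0.39, edgeR adjusted p = 0.255). Krt80 starts 40.9 kb from Krt7, and the log2 fold change was -0.13 for Krt80 and -0.69 for Krt7.

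Genes with a pattern most like each keratin were ranked over the 6 libraries by Euclidean distance between log2(CPM + 0.5) profiles, each less its mean, with CPM scaled by TMM. These are descriptions of 6 shared libraries and carry no test. Nearest to Krt8 were Nes (distance 0.615), Cox4i2 (0.634), Basp1 (0.636), Ank1 (0.704) and Adamts9 (0.753). In ARF-labelled libraries Cox4i2 (0.916, 0.724 and 0.485 CPM) and Ank1 (0.367, 0.362 and 0.485 CPM) were near the added 0.5, which shrinks their differences. The edgeR log2 fold change of Ank1 was -4.09, against -2.82 for Krt8. Nearest to Krt20 was Plk3, a stress-response kinase gene (0.575), followed by Rnd1 (0.765), Ceacam1 (0.845), the chloride channel gene Cftr (0.877) and the stress cytokine gene Gdf15 (0.901). Nearest to Krt7 were Sft2d1 (0.130), Uhrf1 (0.192), Scin (0.220), Pde3b (0.255) and Ttc37 (0.274). Krt5 was nearest to Gsto1 (0.682), Ivl (0.797), Anxa8 (0.807), Slc9a8 (0.882) and Dscaml1 (0.896). Dscaml1 was also near the added 0.5, at 0.646 CPM in ARF-labelled replicate 3 and 0.551 CPM in healthy-labelled replicate 3. Krt15 was nearest to Capsl (0.534), Slc22a7 (0.617), Abcc3 (0.670), Fcgbp (0.803) and Msln, the mesothelin gene (0.899). Krt80, which differed little between libraries, was nearest to Map4k5 (0.126), Dpp4 (0.157), Kank1 (0.162), Lztr1 (0.185) and Stam (0.192).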

How the data were processed

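Kidney RNA was sequenced in 6 libraries, grouped by the diagnosis in the labels as ARF (3) and healthy (3) and named by the number in their titles. The authors deposited raw fragment counts per annotation row, made with featureCounts 2.0.1 over exons by gene name, without strand, per the file headers. Which aligner fed them is not clear: the submitters' processing notes name Bowtie 0.12.2 with mm9 and the design text other tools. The row intervals lie on another build than the reads: rows over GRCm38 exons are 29.8% of rows and hold 98.5% of counts. Each row was therefore given to the GRCm38 gene (GENCODE M21 basic) holding 0.9 or more of the exon bases it overlaps, with a minimum of 25 bases (bedtools 2.31.1, Python 3.11.15), and rows were summed per gene. This gave 9519 genes with 63.0% of the counts.

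The main test was edgeR 4.0.16 (R 4.3.3), glmQLFit and glmQLFTest, with TMM, filterByExpr, library totals from every row and no term but group, two-sided, on 5246 genes. CPM is relative to the library total, and SE is the log2 fold change over the square root of F. Depth, 2873370 to 6191479 counts, sets the precision of low genes. Alternatives were DESeq2 1.42.0, other scalings, filters and assignment limits, a replicate block, and each library left out. The tool was tested on simulated data with the same spread set for every gene, so that test does not cover the unequal spread of these genes. The keratins and the gene lists were chosen with earlier results of these data known. All keratins of the rule are named, and from the 4 keratin-related lists and the urothelial list the called genes with the largest changes, at most 6. The rule set for named genes covered every list, but lists of other kidney and blood cells are given mainly as counts and summed levels. The deposited table of the whole series repeats the counts and was not used.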

Additional observations from a re-analysis of the deposited data

How the results depend on the processing

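The calls of Krt8 (-2.96 to -2.64 when each library was left out), Krt20 (-4.10 to -3.66) and Krt7 (-0.84 to -0.57) held under all alternatives that gave a value. Krt8 has no value with a required exon share of 1.0, since 101 bases of its row lie on Gm36026. Krt15 ran from 0.66 to 1.73 over left-out libraries, and was called without healthy-labelled replicate 1, with DESeq2's Wald test (1.00, adjusted p = 0.0471) and with the replicate block (1.09, adjusted p = 0.0117). Krt5 ran from -0.90 to 0.15 over left-out libraries, turning sign without healthy-labelled replicate 1. Krt80 ran from -0.23 to 0.01, turning sign without ARF-labelled replicate 3 (0.013) and with totals only (0.049). The cause was not tested. Same-numbered libraries deviated from their group means with correlations of -0.29, -0.22 and -0.07, and no ARF-labelled library correlated best with its own number. Deviations within a group of 3 are tied to each other, so these values cannot settle whether the libraries were paired. With the replicate block 2288 genes were called, against 2624 without. Scaling by totals moved the median of all genes to 0.19 and called 1749 higher and 1013 lower, against 1319 and 1305 with TMM. Genes called ran from 2117 to 2495 over left-out libraries, and members called over the 4 keratin-related lists from 26 to 30. With all libraries 29 of 42 tested members of those lists were called, beside 50.0% of all genes tested. The ratio differences kept their sign: -1.19 to -0.83 for Krt20 to Krt8, 2.21 to 2.86 for Krt5 to Krt8 and 3.04 to 4.04 for Krt5 to Krt20, and -0.60 with a pseudocount of 5 CPM for the first. Each keratin lies in 1 row, so using its largest row alone changed nothing. Depth limits the lowest values: the fewest counts of a keratin in a library were 34, for Krt15 in healthy-labelled replicate 2.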
